A study of Homo sapiens with 18 samples.

Results

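The 8 genes described here encode enzymes that make NAD, turn it into NADP and NADPH, remove ADP-ribose chains or use NAD: NAMPT, NMNAT1, NADSYN1, QPRT, NADK, NNT, PARG and SIRT1. They were chosen by gene symbol, and each of them had a row among the 21391 features measured with inhibitors and among the 18350 measured with siRNAs. RNA was sequenced from LNCaP cells, a human prostate cancer line that grows in response to androgen, in 18 libraries that form 9 groups of 2 libraries, described by the submitters as biological duplicates. For 24 h, cells received UPF1069, olaparib or veliparib at 10 uM each, with DMSO as the vehicle, or were transfected for 72 h with siPARP1_A, siPARP1_B, siPARP2_A or siPARP2_B, with siNC as the control siRNA. Olaparib, a phthalazinone, and veliparib, a benzimidazole carboxamide, inhibit PARP1 and PARP2, and UPF1069 is sold as a PARP2 inhibitor. The duplicates share 1 cell line, so the p-values measure only the spread between these libraries.

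PARP1 and PARP2 split NAD to attach chains of ADP-ribose to proteins, and this releases nicotinamide. NAMPT turns nicotinamide into nicotinamide mononucleotide, which NMNAT1 converts to NAD in the nucleus. NADSYN1 completes NAD synthesis from nicotinic acid, and QPRT feeds the route from tryptophan. NADK phosphorylates NAD to NADP, and NNT, in the inner mitochondrial membrane, uses the proton gradient to make NADPH. PARG takes the ADP-ribose chains apart, and SIRT1 is a nuclear deacetylase that consumes NAD, so that PARP enzymes and sirtuins draw on the same cofactor.

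The inhibitor libraries held 26.43 to 35.7 M reads and the siRNA libraries 15.45 to 18.62 M reads. Levels with inhibitors are counts per M reads (CPM), and those with siRNAs are normalised reads per M; the tables were normalised apart. The targeted genes were low where the labels place their siRNAs: PARP1 stood at 4.78 and 5.67 with siPARP1_A and at 8.99 and 9.05 with siPARP1_B, against 452 and 479 with siNC. PARP2 stood at 3.06 and 2.56 with siPARP2_A and at 1.78 and 1.01 with siPARP2_B, against 29.0 and 25.8 with siNC. PARP1 was also low with siPARP2_B, at 160.5 and 145, a mean of 0.328 of siNC. The other siRNAs went with smaller falls of the PARP gene they do not target. The PARP2 mean was 0.784 of siNC with siPARP1_A and 0.69 with siPARP1_B. The PARP1 mean was 0.863 of siNC with siPARP2_A. In the limma test described below, the adjusted p of these falls was 0.0417, 0.00429 and 0.0194. A result with any of the siRNAs thus goes with lower levels of both targets, most of all with siPARP2_B. The luminal prostate markers KLK3, FOXA1, HOXB13, KRT8 and KRT18 were present in every library, and KLK3 ranged from 179 to 1444.3 CPM with inhibitors and DMSO and from 171 to 1413.5 normalised reads per M with siRNAs. Of the markers of other cell types, KRT14 (basal) reached 0.929, and PTPRC and CD68 (immune) 0.313 and 0.118. SYP (neuroendocrine) reached 3.86, VWF (endothelial) 11.3 and COL1A1 (stromal) 14.0. KRT5, TP63, COL1A2, DCN, CD3E, PECAM1 and CHGA had no values under these symbols. In bulk RNA, fewer cells expressing a gene and less RNA per cell cannot be told apart.

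Per kb of transcript, the genes fell into an abundant, a middle and a near-silent tier. In siNC cells NAMPT had the highest level, a mean of 62.9 normalised reads per M and kb, followed by NADK at 33.6. SIRT1 at 14.3 and NADSYN1 at 12.5 came next, and their libraries overlapped. PARG followed at 8.87 on the same scale. NNT at 0.545, NMNAT1 at 0.401 and QPRT at 0.0277 made the low end. In DMSO cells NADK led with 46.7 CPM per kb, ahead of NAMPT at 22.6, NADSYN1 at 20.6, SIRT1 at 8.07, PARG at 5.88, NMNAT1 at 2.02, NNT at 0.145 and QPRT at 0.0587. NAMPT and NADK thus had the highest levels per kb of the 8 genes in both control groups, and QPRT the lowest. QPRT was covered by 0 to 13 reads per library, where 3 reads equal at most 0.113 CPM in an inhibitor library and at most 0.207 normalised reads per M in an siRNA library.

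Genes with a mean of at least 1 were tested with limma on log2(value + 1), with Benjamini-Hochberg adjustment over the 13337 features tested with inhibitors and the 12701 tested with siRNAs, and a threshold of 0.05. Of the 8 genes, 6 passed the minimum in the inhibitor table, where QPRT and NNT did not, and 7 in the siRNA table, where QPRT did not. NNT would pass in the siRNA table without siPARP1_A as well, with a mean of 3.74. Fold changes are on the log2(value + 1) scale, which understates changes of NMNAT1 and NNT at their low levels.

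Promoter sequence is shown for the genes with the widest changes after knockdown, NNT and SIRT1, and for NAMPT, which was lower with each siRNA. Each window holds the 250 bases before a gene start in the RefSeq table of build GRCh38.p14, read 5′ to 3′ on the gene's strand. Capitals mark the GC box GGGCGG, bound by Sp1-type factors, and the E-box CACGTG, bound by factors such as MYC and USF1, each searched on both strands. The matches do not overlap one another.
NAMPT, chr7:106284984-106285233, minus strand: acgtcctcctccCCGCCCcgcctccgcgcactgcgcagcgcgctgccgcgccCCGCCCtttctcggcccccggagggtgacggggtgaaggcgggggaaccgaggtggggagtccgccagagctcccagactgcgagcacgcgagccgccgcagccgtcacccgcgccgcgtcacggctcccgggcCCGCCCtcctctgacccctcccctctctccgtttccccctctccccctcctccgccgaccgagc
SIRT1, chr10:67884406-67884655, plus strand: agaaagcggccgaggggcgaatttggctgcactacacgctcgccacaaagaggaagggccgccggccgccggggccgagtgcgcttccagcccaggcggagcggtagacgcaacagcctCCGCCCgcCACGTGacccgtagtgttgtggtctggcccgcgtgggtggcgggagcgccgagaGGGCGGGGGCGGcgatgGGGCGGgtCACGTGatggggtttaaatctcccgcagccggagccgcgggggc
NNT, upstream start, chr5:43602425-43602674, plus strand: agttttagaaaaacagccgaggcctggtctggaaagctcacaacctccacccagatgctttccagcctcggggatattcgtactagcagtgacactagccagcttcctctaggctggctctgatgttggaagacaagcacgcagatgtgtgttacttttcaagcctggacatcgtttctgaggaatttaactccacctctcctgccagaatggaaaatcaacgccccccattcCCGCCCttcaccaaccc
NNT, downstream start, chr5:43602930-43603179, plus strand: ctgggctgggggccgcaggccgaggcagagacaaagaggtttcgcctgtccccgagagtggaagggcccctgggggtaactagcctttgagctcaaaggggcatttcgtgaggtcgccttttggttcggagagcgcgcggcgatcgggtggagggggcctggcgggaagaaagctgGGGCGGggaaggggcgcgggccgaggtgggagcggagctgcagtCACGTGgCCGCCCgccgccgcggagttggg

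The SIRT1 window held 4 GC boxes and 2 E-boxes, the NAMPT window 3 GC boxes and no E-box, and the downstream NNT window 2 GC boxes and 1 E-box. Of all 35116 RefSeq windows of the same length, 42.6% held a GC box and 6.34% an E-box. The ETS site CCGGAAG, found in 8.52% of windows, and the AP-1 site TGANTCA, found in 6.57%, had no match in the 4 windows shown. Among the windows of the other genes, NMNAT1 held 2 ETS sites. These matches describe the letters alone, and no binding was measured.

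NAMPT, the enzyme that recycles the nicotinamide set free by PARP activity, fell with each of the 4 siRNAs. It stood at 177 and 178 normalised reads per M with siPARP1_A, 218 and 231 with siPARP1_B, 245 and 248 with siPARP2_A, and 220.5 and 221 with siPARP2_B, against 299 and 277 with siNC. Every knockdown library lay below both control libraries, and the siPARP1_A libraries were the lowest. The siPARP1_A mean was 0.616 of the siNC mean, with a log2 fold change of -0.70 ± 0.056 (SE) and an adjusted p of 1.16e-10. The log2 fold changes were -0.36 ± 0.056 with siPARP1_B, -0.38 ± 0.056 with siPARP2_B and -0.22 ± 0.056 with siPARP2_A, whose adjusted p of 0.0017 was the largest of the 4. NAMPT was the only gene of the 8 called lower with all 4 siRNAs, as were 515 features, 4.05% of those tested, and the 4 comparisons share the siNC libraries. A direct comparison of the PARP1 sequences gave a lower NAMPT level with siPARP1_A, at a log2 difference of -0.34 (adjusted p = 1.37e-05).

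**Figure D1:**
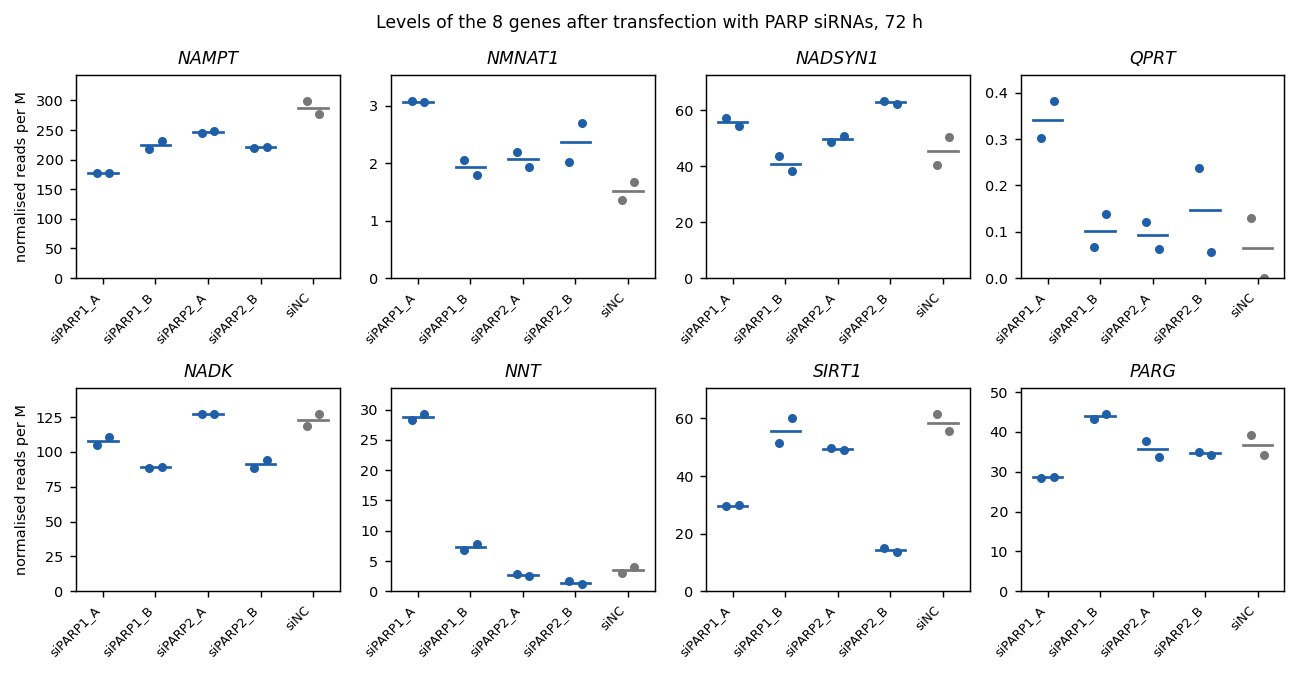
Level of each gene in normalised reads per M (vertical axis, from 0, scaled per gene) in the 2 libraries (points) of each siRNA group, with the group mean (bar); PARP siRNAs are blue and siNC is grey. NAMPT was lower than siNC in all 8 knockdown libraries, NNT reached 28.2 and 29.2 with siPARP1_A, and SIRT1 dropped to 15.0 and 13.6 with siPARP2_B.

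NMNAT1 and NADSYN1, which act at the last steps of NAD synthesis, were higher with siPARP1_A and siPARP2_B, the reverse of NAMPT. NMNAT1 had 3.08 and 3.06 normalised reads per M with siPARP1_A and 2.02 and 2.70 with siPARP2_B, against 1.36 and 1.67 with siNC. The 2 knockdown groups lay above siNC, but only 21 to 51 reads per library stand behind these levels. NMNAT1 changed by a log2 fold of 0.70 ± 0.16 (SE) with siPARP1_A (adjusted p = 0.000885) and 0.41 ± 0.16 with siPARP2_B (adjusted p = 0.0294). The siPARP2_B call was lost with DESeq2 (adjusted p = 0.131), without siNC replicate 1 (0.33 on the log2 scale) and without siPARP2_B replicate 2 (0.27). With siPARP1_B the NMNAT1 libraries stood at 2.06 and 1.80 and with siPARP2_A at 2.20 and 1.94, and neither group passed the test, with adjusted p of 0.30 and 0.151.

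NADSYN1 stood at 57.1 and 54.3 normalised reads per M with siPARP1_A, 43.5 and 38.3 with siPARP1_B, 48.6 and 50.9 with siPARP2_A and 63.3 and 62.2 with siPARP2_B, against 40.4 and 50.3 with siNC. The siPARP1_B and siPARP2_A libraries overlapped the widely spaced control libraries, and the siPARP2_B libraries were the highest. The log2 fold change was 0.47 ± 0.085 with siPARP2_B (adjusted p = 3.5e-05) and 0.30 ± 0.085 with siPARP1_A (adjusted p = 0.00475). The siPARP1_A call was lost without siNC replicate 1, at 0.14, and without siPARP1_A replicate 1, at 0.26 (adjusted p = 0.0528). Conversely, siPARP1_B passed without siNC replicate 1, at -0.29, and siPARP2_A without siNC replicate 2, at 0.29, and with a correction for GC content and length, at 0.23 (adjusted p = 0.0135). QPRT, at the entry from tryptophan, had 5 and 6 reads with siPARP1_A, 1 and 2 with siPARP1_B, 2 and 1 with siPARP2_A and 4 and 1 with siPARP2_B, against 2 and 0 with siNC. In the fit without a minimum level the QPRT value with siPARP1_A was 0.34 ± 0.12 on the log2 scale (adjusted p = 0.0301), and the other 3 siRNAs did not pass.

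NNT, the mitochondrial transhydrogenase, showed the widest change of the 8 genes, and its direction differed between the PARP1 and the PARP2 siRNAs. It had 28.2 and 29.2 normalised reads per M with siPARP1_A, from 466 and 458 reads, and 6.79 and 7.88 with siPARP1_B, from 102 and 114 reads. The siPARP2_A libraries held 2.81 and 2.56 and the siPARP2_B libraries 1.67 and 1.13, against 2.99 and 4.08 with siNC, from 46 and 71 reads. The PARP1 siRNA libraries lay above siNC and the PARP2 siRNA libraries below it, without overlap. The mean was 8.12 times that of siNC with siPARP1_A, and 2.08 times with siPARP1_B. With siPARP1_A the log2 fold change was 2.72 ± 0.15 (adjusted p = 1.04e-13), which ranked NNT as 21 of 12701 features by size of change, and with siPARP1_B it was 0.89 ± 0.15 (adjusted p = 4.04e-05). NNT was one of 995 features, 7.83%, called higher with both PARP1 siRNAs.

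With siPARP2_B, NNT fell to 0.395 of the siNC mean, at -0.92 ± 0.15 on the log2 scale (adjusted p = 7.7e-06), whereas with siPARP2_A its log2 value of -0.29 did not pass (adjusted p = 0.116), except without siNC replicate 1, at -0.46 (adjusted p = 0.0364). Set against each other, the mean of the PARP2 siRNAs lay below the mean of the PARP1 siRNAs by a log2 difference of -2.41 ± 0.11 (adjusted p = 7.28e-16). That SE and p measure the spread between duplicate libraries, not the spread between the sequences of a target. The PARP1 sequences also differed from each other, by 1.84 ± 0.15, siPARP1_A being higher (adjusted p = 1.64e-10), and the PARP2 sequences by 0.63 ± 0.15, siPARP2_A being higher (adjusted p = 0.000693). The antisense gene NNT-AS1 shares 2.6% of the NNT exon bases in the GRCh38 annotation, and the library kit does not mark strand. NNT-AS1 had 0.97 to 1.6 CPM in the inhibitor libraries and no values with siRNAs. Other annotated genes share 15.7% of the QPRT exon bases, 9.5% of those of NMNAT1, 8.7% of those of NAMPT and 0.7% of those of PARG. The part of such overlap in the levels was not tested.

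NADK, which makes NADP from NAD, was lower with 3 of the 4 siRNAs. Its levels were 105 and 111 normalised reads per M with siPARP1_A, 88.5 and 89.5 with siPARP1_B, 127 and 127 with siPARP2_A and 88.3 and 94.2 with siPARP2_B, against 119 and 127 with siNC. The siPARP1_B and siPARP2_B libraries were the lowest, and siPARP2_A was level with the higher control library. The log2 fold change was -0.46 ± 0.061 with siPARP1_B (adjusted p = 1.55e-06), -0.42 ± 0.061 with siPARP2_B (adjusted p = 1.3e-06) and -0.18 ± 0.061 with siPARP1_A (adjusted p = 0.0165). The siPARP1_A call was lost without siNC replicate 2, at -0.13, and without siPARP1_A replicate 1, at -0.14. With siPARP2_A the value was 0.05, with a 95% interval of -0.08 to 0.18, and 0.14 with the GC and length correction, where it passed (adjusted p = 0.0255). NADK was one of 1453 features, 11.4%, called lower with both PARP1 siRNAs, as was NAMPT.

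PARG, the main enzyme that degrades the chains PARP1 and PARP2 build, moved in opposite directions with the PARP1 sequences. It stood at 28.4 and 28.8 normalised reads per M with siPARP1_A, 43.3 and 44.4 with siPARP1_B, 37.6 and 33.6 with siPARP2_A and 34.9 and 34.3 with siPARP2_B, against 39.1 and 34.2 with siNC. The siPARP1_A libraries lay below both control libraries, the siPARP1_B libraries above both, and the PARP2 siRNA libraries overlapped the controls. PARG changed by -0.34 ± 0.082 on the log2 scale with siPARP1_A (adjusted p = 0.000976) and 0.26 ± 0.082 with siPARP1_B (adjusted p = 0.0147), and siPARP1_A differed from siPARP1_B by -0.60 (adjusted p = 9.64e-07). The rise with siPARP1_B was lost without siNC replicate 2, at 0.16, and without siPARP1_B replicate 2, at 0.24. With siPARP2_A the log2 value was -0.04 (95% interval -0.21 to 0.13) and with siPARP2_B -0.08 (-0.25 to 0.09).

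SIRT1, the NAD-consuming deacetylase, fell deeply with 1 sequence of each target. It had 29.6 and 29.9 normalised reads per M with siPARP1_A, 51.3 and 60.3 with siPARP1_B, 49.9 and 48.9 with siPARP2_A and 15.0 and 13.6 with siPARP2_B, against 61.4 and 55.5 with siNC. The siPARP2_B libraries were the lowest, siPARP1_A came next, and siPARP1_B overlapped the controls. The siPARP2_B mean was 0.245 of siNC, at -1.95 ± 0.085 on the log2 scale (adjusted p = 2.9e-16), and the siPARP1_A mean 0.509 of siNC, at -0.95 ± 0.085 (adjusted p = 8.28e-10). The log2 value with siPARP1_B was -0.07, with an interval of -0.24 to 0.11.

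With siPARP2_A, SIRT1 was lower by -0.24 ± 0.085 on the log2 scale (adjusted p = 0.0234), a call lost with DESeq2 (adjusted p = 0.0524), without siNC replicate 1 (-0.17) and without either siPARP2_A library (-0.25 and -0.22). SIRT1 and NAMPT were among the 1770 features, 13.9%, called lower with both PARP2 siRNAs. Sequences of 1 target differed from each other for SIRT1: siPARP1_A was below siPARP1_B by -0.88 (adjusted p = 3.16e-09), and siPARP2_A above siPARP2_B by 1.72 (adjusted p = 4.37e-15).

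Counted together, 7 of the 7 genes tested passed with siPARP1_A, 3 higher and 4 lower, where 54.4% of all features passed, 25.5% higher and 28.9% lower. With siPARP1_B 4 of 7 passed, 2 in each direction, against 40.4% of all features, 16.4% higher and 23.9% lower. With siPARP2_A 2 of 7 passed, both lower, against 49.4% of all features, 24.5% higher and 24.9% lower, and with siPARP2_B 6 of 7 passed, 2 higher and 4 lower, against 66.1%, 30.9% higher and 35.2% lower. On leaving out a library the counts with siPARP1_A and siPARP2_B fell in some runs, and those with siPARP1_B and siPARP2_A moved either way. Fewer of all features passed in each of these runs. The median log2 fold change of the 7 genes was -0.18 with siPARP1_A, -0.07 with siPARP1_B, -0.04 with siPARP2_A and -0.38 with siPARP2_B, beside -0.01, -0.03, 0.00 and -0.03 over all features tested in the same comparisons. Since most features passed in several of these comparisons, the counts alone do not set the 8 genes apart. Between sequences of the same target, 7 of 7 passed for siPARP1_A against siPARP1_B, where 54.8% of features passed, and 5 of 7 for siPARP2_A against siPARP2_B, where 64.8% passed. For the mean of the PARP2 siRNAs against that of the PARP1 siRNAs 5 of 7 passed, beside 65.5% of features.

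**Figure D2:**
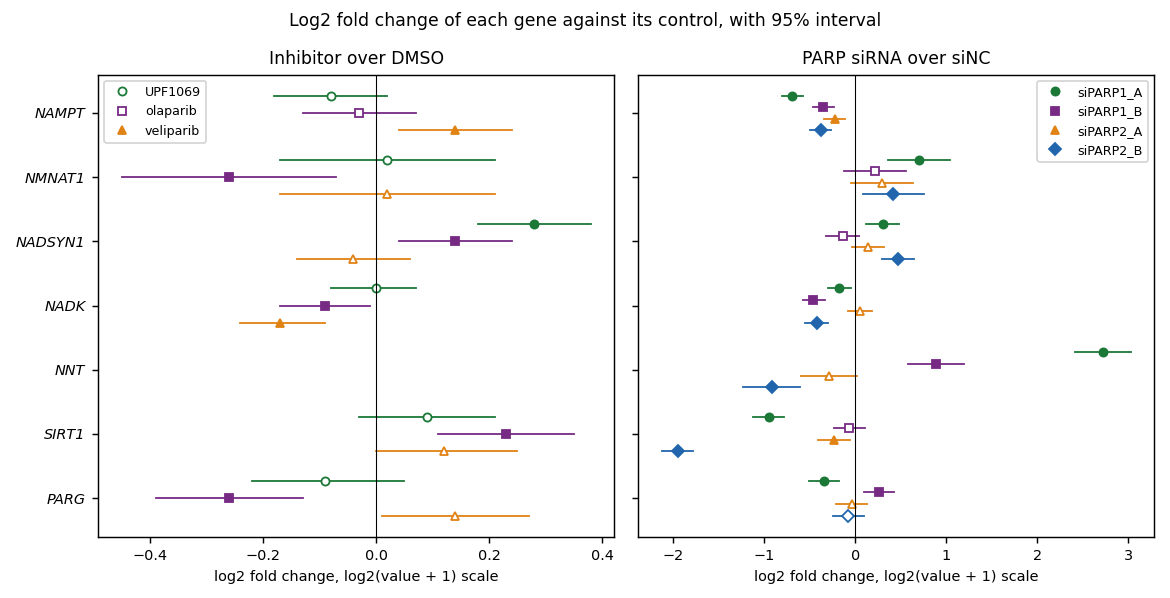
Log2 fold change (horizontal axis, log2(value + 1) scale, a wider range on the right) of 7 genes for each inhibitor over DMSO (left) and each siRNA over siNC (right); lines are 95% intervals, filled symbols passed the adjusted p of 0.05, and NNT was not tested with inhibitors. The inhibitor values lie between -0.26 and 0.28, whereas the siRNA values run from -1.95 for SIRT1 to 2.72 for NNT.

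With 24 h of inhibitor the fold changes of the 6 genes tested lay between -0.26 and 0.28. NADSYN1, the glutamine-dependent NAD synthetase, was the only gene of the 6 tested to pass with UPF1069, where 24.3% of features passed, 10.3% higher and 14.0% lower. It had 90.9 and 90.6 CPM with UPF1069, 81.5 and 82.4 with olaparib and 68.7 and 76.7 with veliparib, against 73.4 and 75.6 with DMSO. The UPF1069 libraries were the highest, olaparib lay between them and DMSO, and veliparib spanned the DMSO libraries. The log2 fold change was 0.28 ± 0.048 (SE) with UPF1069 (adjusted p = 0.00018) and 0.14 ± 0.048 with olaparib (adjusted p = 0.0223). The olaparib call was lost with DESeq2 (adjusted p = 0.0523) and without any 1 of the 4 libraries, with values of 0.11 to 0.16. With veliparib the value was -0.04, and it turned to 0.14 (adjusted p = 0.00704) when fold changes were corrected for GC content and transcript length, whereas without veliparib replicate 2 it passed in the other direction, at -0.12 (adjusted p = 0.0158).

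Olaparib changed the most of these genes, 5 of 6 (2 higher, 3 lower), where 52.5% of all features passed, 25.8% higher and 26.8% lower. That count fell to 2 with DESeq2. It was also smaller on leaving out any library, where fewer of all features passed as well. PARG stood at 22.5 and 23.1 CPM with UPF1069, 19.2 and 21.0 with olaparib and 27.3 and 26.5 with veliparib, against 23.7 and 24.9 with DMSO. Olaparib libraries were the lowest and veliparib libraries the highest. PARG fell with olaparib, at -0.26 ± 0.063 (adjusted p = 0.00133), and did not pass with UPF1069 at -0.09 or with veliparib at 0.14 (adjusted p = 0.0781), except with edgeR (0.17 and 0.16) and without veliparib replicate 2 (0.16).

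SIRT1 was higher with olaparib, the opposite of its direction with siPARP1_A, siPARP2_A and siPARP2_B. It had 35.9 and 34.4 CPM with UPF1069, 39.0 and 38.6 with olaparib and 38.2 and 34.1 with veliparib, against 32.0 and 34.1 with DMSO. The olaparib libraries lay above the others. The log2 fold change was 0.23 ± 0.059 with olaparib (adjusted p = 0.00249), and 0.18 (adjusted p = 0.0552) without DMSO replicate 1. UPF1069, at 0.09, and veliparib, at 0.12, did not pass, with intervals of -0.03 to 0.21 and 0.00 to 0.25. UPF1069 passed under the GC and length correction, at 0.13 (adjusted p = 0.0458), and veliparib with edgeR and TMM, at 0.15 (adjusted p = 0.0459), and without veliparib replicate 2, at 0.20.

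NMNAT1, the nuclear NAD-forming enzyme, had 7.88 and 7.64 CPM with UPF1069, 6.60 and 5.83 with olaparib and 8.25 and 7.25 with veliparib, against 7.36 and 7.91 with DMSO. Only the olaparib libraries stood apart, below the DMSO libraries. Its olaparib fold change was -0.26 ± 0.092 on the log2 scale (adjusted p = 0.0209), and the call was lost with DESeq2 (adjusted p = 0.0988), without DMSO replicate 2 (-0.22) and without olaparib replicate 2 (-0.18).

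NAMPT and NADK showed small shifts. NAMPT had 97.6 and 98.2 CPM with UPF1069, 102 and 101 with olaparib and 121 and 108 with veliparib, against 102 and 105 with DMSO. Only the veliparib libraries were above both DMSO libraries, and they were far apart. NAMPT passed with veliparib, at 0.14 ± 0.048 (adjusted p = 0.0226), and its values with UPF1069 and olaparib were -0.08 (95% interval -0.18 to 0.02) and -0.03 (-0.13 to 0.07). Both UPF1069 libraries lay below both DMSO libraries, and UPF1069 passed with only the groups compared, at -0.08 (adjusted p = 0.0266). The veliparib call was lost without DMSO replicate 1 (0.12), without DMSO replicate 2 (0.16) and without veliparib replicate 1 (0.06). NADK had 171 and 169 CPM with UPF1069, 160.2 and 161 with olaparib and 151 and 153 with veliparib, against 172 and 169.8 with DMSO. NADK was lower with veliparib, at -0.17 ± 0.037 (adjusted p = 0.00107), and stood at -0.09 with olaparib (adjusted p = 0.0496), a call lost under every alternative run except that with only the groups compared.

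Veliparib changed 2 of 6 genes, 1 in each direction, where 40.4% of all features passed, 17.2% higher and 23.2% lower, and both calls were lost with the GC and length correction, at 0.04 for NAMPT and -0.01 for NADK. On leaving out a library the count moved either way, as did the number of all features called. Across genes, the veliparib fold changes went with GC content at a Spearman rho of -0.689, beside 0.107 for UPF1069 and -0.118 for olaparib; the genes of a library are not independent of one another. NAMPT transcripts are 36.3% GC and NADK transcripts 56.5%. The veliparib libraries also held more of the 28S ribosomal RNA gene RNA28S5, at 743 and 805 CPM, against 118 and 115 with DMSO. UPF1069 stood at 171 and 221 CPM and olaparib at 234 and 124. The cytoplasmic RNA gene RN7SL1 was highest with veliparib as well, at 27.9 and 31.1 CPM, against 4.46 and 4.53 with DMSO. It had 6.65 and 6.92 CPM with UPF1069 and 16.4 and 4.51 with olaparib. The part of these differences in the inhibitor results was not tested beyond that correction.

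NNT was too low for the inhibitor test, at 0.725 and 0.595 CPM with UPF1069, 0.363 and 0.336 with olaparib and 0.857 and 1.02 with veliparib, against 0.968 and 0.912 with DMSO. The olaparib libraries held 12 reads each and were the lowest, against 28 and 31 reads with DMSO. In the fit without a minimum level the olaparib value was -0.52 ± 0.10 on the log2 scale (adjusted p = 0.000317), the opposite sign to that with the PARP1 siRNAs, and the value with UPF1069 was -0.23 (adjusted p = 0.161). QPRT was covered by 11 and 13 reads with UPF1069, 13 and 7 with olaparib and 3 and 6 with veliparib, against 2 and 7 with DMSO.

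**Figure D3:**
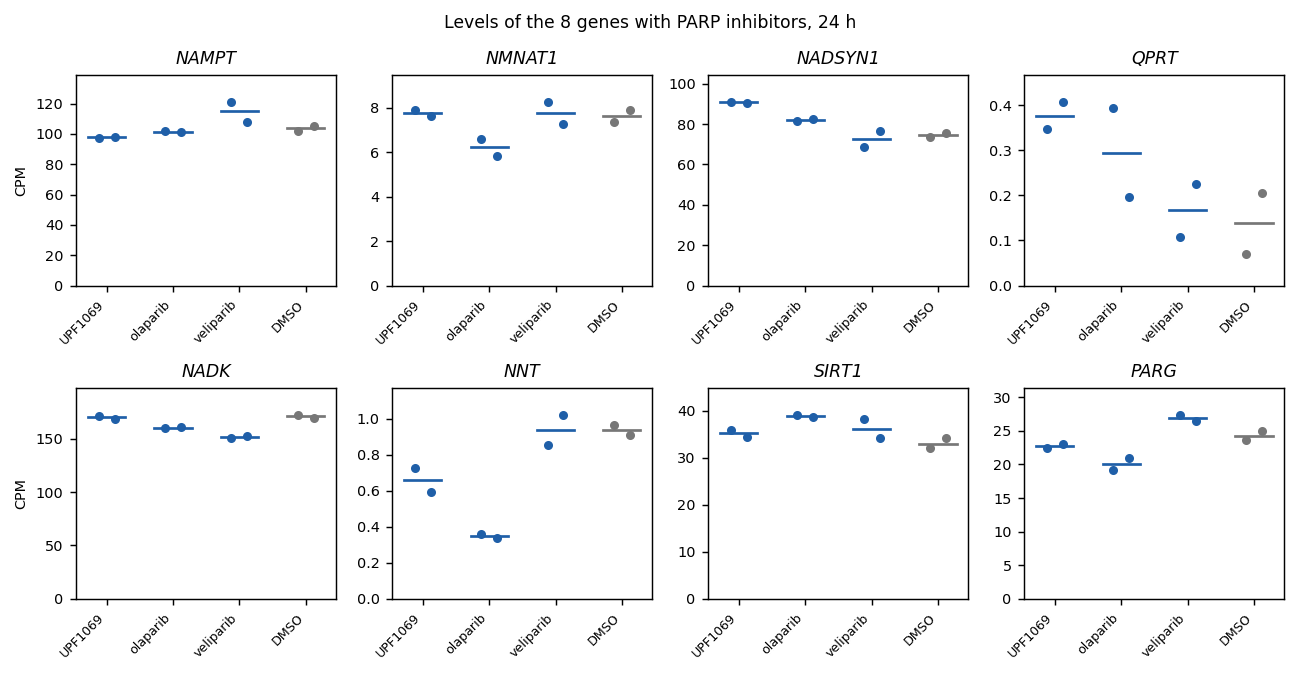
Level of each gene in CPM (vertical axis, from 0, scaled per gene) in the 2 libraries (points) of each inhibitor group and of DMSO, with the group mean (bar); inhibitors are blue and DMSO is grey. NADSYN1 was highest with UPF1069 at 90.9 and 90.6, and olaparib gave the lowest NNT, NMNAT1 and PARG levels.

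The 3 inhibitors were also compared with each other at the shared dose of 10 uM and time of 24 h, in 3 pairs. UPF1069 against olaparib gave higher levels of NMNAT1 (log2 difference 0.28, interval 0.09 to 0.47, adjusted p = 0.014), PARG (0.18, interval 0.05 to 0.31, adjusted p = 0.0232) and NADSYN1 (0.15, interval 0.04 to 0.25, adjusted p = 0.0157), where 51.2% of all features passed. Each of these 3 calls was lost on leaving out at least 1 library, where fewer of all features passed as well. NADK at 0.08 (0.01 to 0.16), SIRT1 at -0.14 (-0.26 to -0.02) and NAMPT at -0.05 (-0.15 to 0.05) did not pass. NADK passed with edgeR and DESeq2 (0.10 each) and with only the groups compared (0.08), and SIRT1 with the GC and length correction (-0.11) and with only the groups compared (-0.14). A missed threshold does not show that the compounds act alike.

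Olaparib, the phthalazinone, and veliparib, the benzimidazole carboxamide, differed most in PARG, which was lower with olaparib by -0.40 (interval -0.54 to -0.27, adjusted p = 9.33e-06). NMNAT1 at -0.28 (interval -0.47 to -0.09) and NAMPT at -0.17 (-0.27 to -0.07) were lower with olaparib as well, and NADSYN1 at 0.17 (0.07 to 0.27) was higher, while 59.5% of all features passed. Of these 4 calls, NADSYN1 was lost with the GC and length correction (0.07), NMNAT1 without olaparib replicate 2 or veliparib replicate 1 (-0.20 each) and NAMPT without veliparib replicate 1 (-0.09). SIRT1 at 0.10 (-0.02 to 0.23) and NADK at 0.08 (0.00 to 0.15) did not pass. SIRT1 passed as higher with olaparib under the GC and length correction (0.21, adjusted p = 0.000553) and without veliparib replicate 1 (0.18), and NADK without veliparib replicate 2 (0.09). UPF1069 against veliparib gave higher NADSYN1 (0.32, interval 0.22 to 0.42) and NADK (0.16, interval 0.09 to 0.24) and lower PARG (-0.23, interval -0.36 to -0.10) and NAMPT (-0.22, interval -0.32 to -0.12), where 50.8% passed. Of these 4 calls, only that of NADSYN1 held with the GC and length correction. NMNAT1 at 0.00 (-0.19 to 0.20) and SIRT1 at -0.04 (-0.16 to 0.09) did not pass.

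Beyond the 8 genes, a list of 42 genes of NAD supply, NAD use and ADP-ribose removal was read, which includes them. It has 36 genes with values, of which 29 were tested with inhibitors and 30 with siRNAs. NMRK2, HAAO, KMO, TDO2, IDO1 and ADPRH had no values under the symbols searched. With UPF1069, 4 of the 29 passed, all higher, which is 13.8% beside 24.3% of all features. With olaparib 11 were higher and 7 lower, 62.1% beside 52.5%, and the 18 became 11 with DESeq2. On leaving out a library fewer of the list passed with olaparib, as did fewer of all features. With veliparib 2 were higher and 8 lower, 34.5% beside 40.4%. On leaving out a library the veliparib counts of the list and of all features moved either way. The 10 became 3 with the GC and length correction, where 3033 of all features passed in place of 5387. The UPF1069 count was 7 with that correction and 11 with only the groups compared. The medians were 0.00, 0.04 and -0.04, beside -0.02, 0.00 and 0.00 over all features. With siPARP1_A 9 of 30 were higher and 10 lower, 63.3% beside 54.4% of all features, and with siPARP1_B 8 were higher and 9 lower, 56.7% beside 40.4%. With siPARP2_A 7 were higher and 7 lower, 46.7% beside 49.4%, and with siPARP2_B 12 were higher and 11 lower, 76.7% beside 66.1%. On leaving out a library the list counts fell with siPARP1_A, siPARP1_B and siPARP2_B, and fell or held with siPARP2_A. The number of all features called fell in each of these runs. The list medians with the siRNAs, in the same order as above, were -0.09, 0.08, 0.07 and 0.07, beside -0.01, -0.03, 0.00 and -0.03 over all features.

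**Figure D4:**
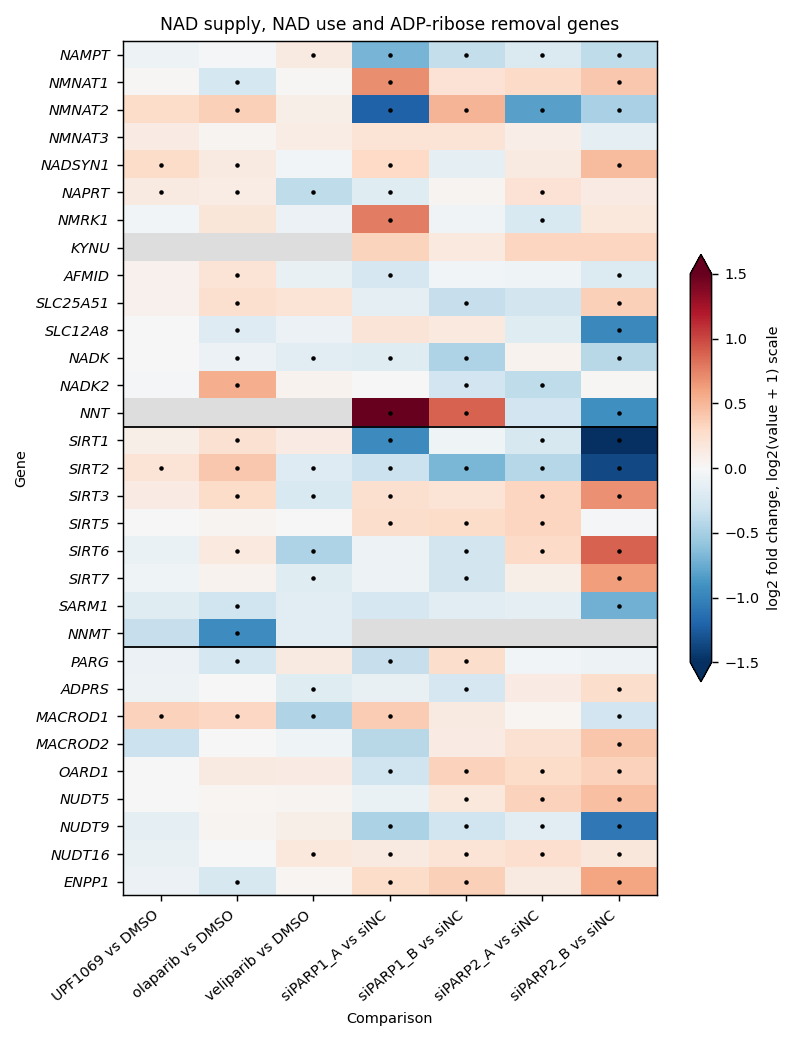
Log2 fold change (colour, log2(value + 1) scale, ending at 1.5 in either direction) of the tested genes of NAD supply, NAD use and ADP-ribose removal (rows, in 3 blocks) in the 7 comparisons with a control (columns); black dots mark adjusted p below 0.05 and grey cells were not tested. Rises and falls are mixed within each block, and siPARP2_B has the most dots, 23 of 30, in the comparison where 66.1% of all features passed.

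Of the rest of the list, genes are named here for the size of their change, which does not compare them with the 8. NNMT, which removes nicotinamide by methylation, fell to 0.333 and 0.392 CPM with olaparib, against 1.80 and 1.44 CPM with DMSO. The log2 fold change was -0.94 ± 0.13 (adjusted p = 3.82e-06), from 11 and 14 reads with olaparib and 52 and 49 with DMSO. NNMT reached the minimum mean of 1 only through the DMSO libraries, so the filter and this test are not independent. NADK2, the mitochondrial NAD kinase, was at 177 and 175 CPM with olaparib, against 119 and 119.7 CPM with DMSO (0.55 ± 0.045, adjusted p = 6.6e-10), while NADK stood at -0.09. NMNAT2, the cytosolic counterpart of NMNAT1, had 2.12 and 0.956 normalised reads per M with siPARP1_A, 7.99 and 6.36 with siPARP1_B, 2.39 and 2.06 with siPARP2_A and 2.80 and 3.32 with siPARP2_B, against 5.45 and 4.02 with siNC. Its log2 fold changes were -1.21 ± 0.19 with siPARP1_A (adjusted p = 7.2e-06), 0.51 ± 0.19 with siPARP1_B (adjusted p = 0.0315), -0.82 ± 0.19 with siPARP2_A (adjusted p = 0.000808) and -0.49 ± 0.19 with siPARP2_B (adjusted p = 0.025).

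NMRK1, the nicotinamide riboside kinase, rose to 48.3 and 51.1 normalised reads per M with siPARP1_A, against 28.2 and 29.4 with siNC (0.77 ± 0.079, adjusted p = 1.23e-08). With siPARP1_B it stood at 27.4 and 28.4 and did not pass, at -0.05 (adjusted p = 0.68). It had 23.5 and 25.4 with siPARP2_A and 32.1 and 32.4 with siPARP2_B. SIRT2, a cytosolic sirtuin, was at 46.6 and 49.2 with siPARP1_B and at 27.2 and 32.1 with siPARP2_B, against 78.4 and 75.9 with siNC, at log2 fold changes of -0.68 ± 0.08 and -1.35 ± 0.08. SIRT2 was called lower with siPARP1_A (-0.32) and siPARP2_A (-0.43) as well. With siPARP2_B, NUDT9, which hydrolyses free ADP-ribose, stood at 44.9 and 43.0, against 96.8 and 89.6 with siNC (-1.07 ± 0.065). NUDT9, too, was called lower with the other 3 siRNAs, at -0.48 with siPARP1_A, -0.30 with siPARP1_B and -0.17 with siPARP2_A. SIRT2 and NUDT9 were thus among the 515 features, 4.05%, called lower with each siRNA, in comparisons that share the siNC libraries. SLC12A8, reported as a nicotinamide mononucleotide transporter, was at 11.2 and 14.0 with siPARP2_B, against 25.9 and 25.1 with siNC (-0.97 ± 0.095). Its levels were 29.2 and 29.4 with siPARP1_A, 28.2 and 28.5 with siPARP1_B and 23.1 and 21.8 with siPARP2_A. SIRT6, a chromatin-bound sirtuin, was higher with siPARP2_B, at 23.9 and 26.8, against 12.6 and 14.0 with siNC (0.88 ± 0.11). With siPARP1_B SIRT6 was called lower, at 10.5 and 11.2 (-0.27, adjusted p = 0.0435). It had 13.4 and 11.8 with siPARP1_A and 16.7 and 16.3 with siPARP2_A.

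The 6 genes tested in both tables were each matched by pattern to the other features with a gene symbol among the 12275 tested in both. The measure was the Pearson correlation over the 18 libraries after each table was centred. The closest to SIRT1 was WDFY1 (r = 0.99), and the closest to NAMPT were SMARCC1 (0.959) and NUPL1 (0.951). HSD3B7 (0.942) was among the closest to NADK. NADSYN1 was closest to CYB5R2 (0.93) and AKIP1 (0.92), PARG to ZNF608 (0.925) and MTMR6 (0.902), and NMNAT1 to FERMT1 (0.894) and ELK3 (0.886). The 18 points share 9 groups of 2 libraries, and these values describe likeness only.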

How the data were processed

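Per the labels' protocols, RNeasy columns were used to isolate total RNA, and library preparation followed the NEBNext Ultra RNA kit. The build hg19 appears in the submitters' processing notes, with edgeR 3.12.0, HTSeq 0.6.1, TopHat2 2.1.0 and bcl2fastq 2.18, without roles. As deposited by the authors, inhibitor values are CPM and siRNA values a normalised signal (reads per M of a scaled library size). The step between values gave whole reads, within 0.01 for 100% of values; scaling factors were 0.9906 to 1.0094 and 0.891 to 1.0366. No sample column was left out.

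The main test was limma 3.58.1 (R 4.3.3) with a trend, 2-sided, on log2(value + 1) for features with a mean of at least 1, with all groups of a table in 1 fit. Residual degrees of freedom were 4 and 5, and prior degrees of freedom 17.6 and 19. In the 7 comparisons with a control it called 3245 to 8390 features, edgeR 4.0.16 (TMM) on the recovered reads 3243 to 8454, and DESeq2 1.42.0 2158 to 7445. Further alternatives were RLE scaling, a pseudocount of 0.25, no minimum, only the groups compared, a replicate block, a GC and length correction and leaving out each library. The method was tested on simulated data. The genes and lists were chosen with earlier results of these data known. Besides the 8 genes and the siRNA targets, listed genes were named if they passed with an absolute log2 fold change of at least 0.5 against a control, at most 4 per comparison, largest first. Transcript length, GC content and exon overlap come from GENCODE for GRCh38, and promoters from RefSeq, so they differ in build from the counts. Of the features matched by pattern and of the marker genes, some are not reported here.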

Additional observations from a re-analysis of the deposited data

How the results depend on the processing

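NAMPT kept its fall with all 4 siRNAs, NNT its rise with both PARP1 siRNAs, and SIRT1 its fall with siPARP1_A and siPARP2_B past the threshold under every alternative run. Among log2 fold changes of the genes tested, which leave out QPRT, 662 values from other settings kept direction and side of the threshold. Of the rest, 31 lost the call, 19 gained one and 17 changed sign. On leaving out a library, calls were lost more often than gained, and some values changed sign. With the GC and length correction, the 8 genes gave 2 calls in place of 1 with UPF1069, 1 in place of 2 with veliparib, 1 in place of 4 for UPF1069 against veliparib and 4 in place of 2 with siPARP2_A. The wider list then gave 7 calls in place of 4 with UPF1069 and 3 in place of 10 with veliparib, and veliparib called 3033 features in place of 5387. Sign changes under that correction were to -0.01 for NMNAT1 and 0.14 for NADSYN1 with veliparib, 0.03 for NAMPT in UPF1069 against olaparib, 0.09 for SIRT1 in UPF1069 against veliparib, -0.01 for NADK in olaparib against veliparib and -0.01 for NAMPT in siPARP2_A against siPARP2_B. The replicate block with that correction gave the same values, except 2 calls for UPF1069 against veliparib and 3038 features called with veliparib. DESeq2 gave 2158 features with UPF1069, 2 of the 8 genes and 11 of the list (in place of 18) with olaparib, and 1 of the 8 with siPARP2_A. The fit with only the groups compared gave 5041 features, 2 of the 8 genes and 11 of the list with UPF1069, 1 of the 8 with veliparib and 5 (in place of 3) for UPF1069 against olaparib; edgeR with TMM gave 4 of the 8 with veliparib. NADK with UPF1069 turned to 0.02 with TMM, 0.01 with RLE and 0.01 with DESeq2, and NMNAT1 in UPF1069 against veliparib stayed at 0.00 with either edgeR scaling, with a changed sign. The cause of these changes was not tested.

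Leaving out a library gave 1575 to 1770 features with UPF1069 and 3560 to 6780 with veliparib. It gave 0 to 1 of the 8 genes for UPF1069 against olaparib, 2 to 3 with olaparib, 1 to 3 with siPARP2_A and 1 to 5 with veliparib. Of the list it gave 10 to 13 with olaparib, 6 to 17 with veliparib, 11 to 16 with siPARP1_A, 10 to 15 with siPARP1_B and 9 to 14 with siPARP2_A. Fold changes that crossed 0 ranged from -0.01 to 0.01 for NADK with UPF1069, -0.29 to 0.02 for NADSYN1 with siPARP1_B, -0.02 to 0.29 with siPARP2_A and -0.12 to 0.04 with veliparib. NMNAT1 ranged from -0.03 to 0.07 with UPF1069, -0.07 to 0.10 with veliparib and -0.08 to 0.09 in UPF1069 against veliparib. PARG ranged from -0.13 to 0.06 with siPARP2_A and -0.17 to 0.02 with siPARP2_B, and SIRT1 from -0.12 to 0.04 in UPF1069 against veliparib and -0.18 to 0.05 with siPARP1_B. Of the 8 genes, only the 6 tested with inhibitors and the 7 tested with siRNAs could be called in these runs. Fewer of all features passed as well for UPF1069 against olaparib, with olaparib and with siPARP2_A. Lower gene counts there are thus not particular to the 8 genes. Where leaving out a library leaves 1 library in a group, that library is assumed to vary like the others.

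Replicate numbers did not pair the libraries: the correlation of deviations of same-numbered libraries lay between -0.141 and 0.115. With the replicate block 4 of the 8 genes passed with olaparib in place of 5, and 3011 to 8324 features passed over the 7 comparisons with a control. A crossed pairing of siPARP2_B and siNC, chosen after seeing the data, called 8294 features in place of 8390. QPRT, at 0 to 13 reads per library, and NNT in the inhibitor libraries, at 12 to 31, had the depth for wide changes only.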
